A study of Mus musculus with 12 samples.

Results

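Contraction of a heart muscle cell is set off by calcium, and the 10 genes described here encode the machinery that lets calcium in, releases it from the internal store, holds it there, and takes it back or expels it. The members were the rows of the deposited count table that carry the symbols Cacna1c, Ryr2, Trdn, Casq2, Hrc, Jph2, Atp2a2, Pln, S100a1 and Slc8a1. All 10 were found among 23457 rows, and all 10 were among the 13050 genes with enough reads to be tested.

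In each beat the L-type channel of the surface membrane admits a little calcium, which opens the ryanodine receptor of the sarcoplasmic reticulum, and that store then releases much more. Relaxation follows as the SERCA2a pump returns calcium to the store and the sodium-calcium exchanger moves the rest out of the cell. Phospholamban brakes the pump until it is phosphorylated under adrenergic drive, so the amounts of pump and brake are often read together.

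The RNA came from hearts of adult C57BL/6J mice, with 6 libraries in each of 2 groups. Each library is called a heart below, though the labels do not say that each is a separate animal. The noninduced hearts carried the floxed Parkin alleles without a Cre transgene. The Parkin KO hearts carried the floxed alleles and MERCreMer, a Cre recombinase held inactive by a modified estrogen receptor until tamoxifen is given, in this case one aimed at the heart. The labels give 9 to 10 weeks after tamoxifen for both groups and do not name the promoter of the transgene. MERCreMer was present by design only in the Parkin KO group, so an effect of the transgene and an effect of losing Parkin cannot be told apart. The labels speak of whole heart, while the protocol describes frozen ventricular apex. Polyadenylated RNA was sequenced without strand information, and the libraries held 11610507 to 16884516 counted reads.

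Several libraries stood apart from the others of their group. Reads assigned to Esr1, which the MERCreMer transgene can supply, lay between 1553 and 4683 CPM (counts scaled to library size) in Parkin KO hearts and between 24 and 64.9 CPM in 4 noninduced hearts. The libraries labelled noninduced 1 and noninduced 3 reached 558 and 962 CPM, against their label. Noninduced 1, 2 and 3 also held 10% to 15.4% of their reads in mitochondrially encoded genes, where the other 3 noninduced hearts held 6.25% to 7.64%. Parkin KO 2, 5 and 6 had 495 to 634 Y-linked reads, noninduced 3 had 178 beside 77.2 CPM of Xist, and each of the other 8 libraries had 7 or fewer. Cardiomyocyte markers were abundant throughout, with a summed level of 90372 to 117296 CPM in noninduced hearts against 109699 to 128838 CPM in the Parkin KO group. Atrial markers ran from 120.6 to 5987 CPM in noninduced hearts against 157.7 to 1547 CPM in Parkin KO, and all 6 of them were lower in Parkin KO at an unadjusted edgeR p under 0.05. In bulk tissue, fewer cells of a type and less RNA per cell cannot be told apart.

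None of the calcium-handling genes changed past the adjusted threshold of 0.05 in edgeR's quasi-likelihood test. That was also true of the whole table, with 0 of 13050 genes called (0%). DESeq2 called 10 genes, none of them a member. The estimates were small: 7 members were higher and 3 lower in Parkin KO, and their median log2 fold change was 0.08, beside 0.01 over all tested genes, of which 52% were higher. Pln alone had an unadjusted p under 0.05, in the higher direction, which 5.82% of all tested genes reached. No member was lower at that level (5.54% of all genes), and no member had groups that did not overlap (0.345% of all genes). The 95% confidence intervals were narrow enough to leave out a 1.5-fold change for 8 of the 10 members. Their median half-width was 0.274 on the log2 scale for the members, near the 0.286 over all tested genes. Together the members took 1.75% ± 0.245 (SD, n = 6) of counted reads in noninduced hearts, against 1.89% ± 0.131 (SD, n = 6) for Parkin KO.

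**Figure D1:**
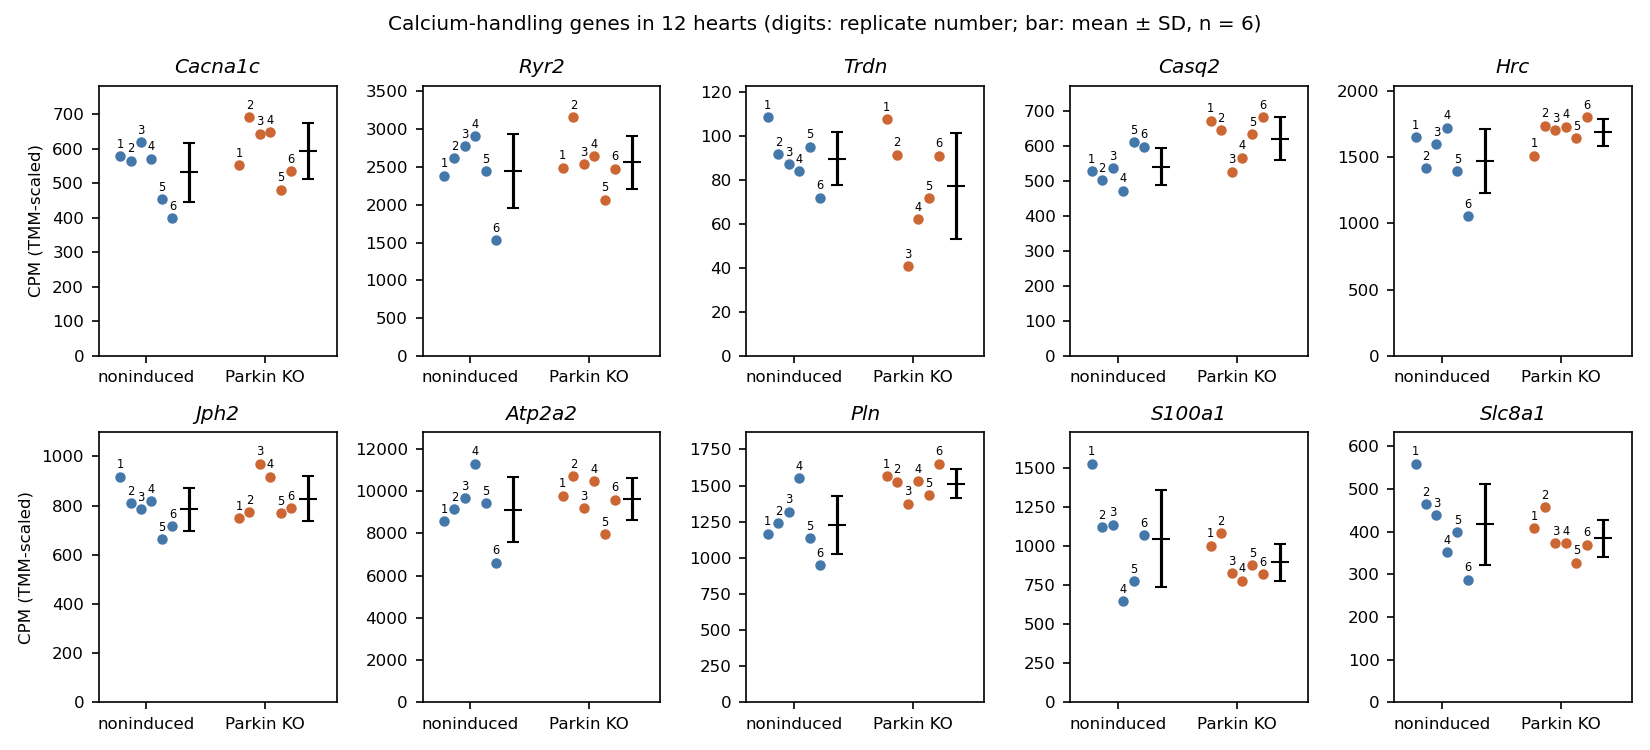
CPM of each member in every heart, with replicate numbers beside the points and the mean ± SD (n = 6) to the right of each group. The 2 groups overlap in all 10 panels, and noninduced 6 is the lowest point in 6 of them.

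Calcium enters through the L-type channel, whose pore is encoded by Cacna1c (GRCm38 chromosome 6, 118587240 to 119196418, minus strand). Its level was 399 CPM at the lowest, 569 at the median and 620 at the highest in noninduced hearts, and 481, 599 and 692 CPM in Parkin KO hearts. Parkin KO 2, 3 and 4 lay above every noninduced heart, while the other 3 lay inside the noninduced range. Between groups the log2 fold change was 0.16 ± 0.123 (SE), with an adjusted p of 0.601 by edgeR.

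The release channel itself is Ryr2 (chromosome 13, 11553102 to 12106945, minus strand). Its CPM ran from 1531 through a median of 2532 to 2912 in noninduced and from 2070 through 2513 to 3162 in Parkin KO hearts. The medians nearly coincide and the lowest value is noninduced 6, which sits apart from the other 11 libraries. The log2 fold change of 0.07 ± 0.147 (SE, edgeR adjusted p = 0.862) turned to -0.05 without noninduced 6 and to -0.01 without Parkin KO 2.

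Trdn (chromosome 10, 33080554 to 33476709, plus strand) encodes triadin, which ties the release channel to calsequestrin and the junctional membrane. It had the fewest reads of the members, at 71.8, 89.2 and 108 CPM (lowest, median, highest) in noninduced hearts and 40.6, 81.2 and 107 CPM in Parkin KO hearts. Parkin KO 3, at 40.6 CPM, was the lowest library, and the Parkin KO hearts spread more widely, with an SD of 24.1 beside 12.2 CPM (n = 6 each). Its log2 fold change was -0.21 ± 0.184 (SE) with an edgeR adjusted p of 0.630 and the widest interval of the members, from -0.61 to 0.18. Without Parkin KO 3 the log2 fold change was -0.09.

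Inside the store, Casq2 (chromosome 3, 102086415 to 102146514, plus strand) encodes cardiac calsequestrin, the main calcium-binding protein there. It measured 472, 532 and 611 CPM in noninduced hearts against 525.6, 639 and 682 CPM in Parkin KO, as lowest, median and highest. Parkin KO 1, 2, 5 and 6 exceeded all noninduced hearts, and Parkin KO 3 and 4 did not. Between groups the difference on the log2 scale was 0.20 ± 0.094 (SE), with an unadjusted p of 0.0523 and an adjusted p of 0.438 by edgeR. Its direction was higher under all 26 alternatives, and it fell to 0.12 in a fit with a term for sex. That term set apart Parkin KO 2, 5 and 6 and no noninduced heart. The group estimate in that fit therefore rests on Parkin KO 1, 3 and 4 against the noninduced hearts.

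Hrc (chromosome 7, 45335290 to 45338974, plus strand) encodes the histidine-rich calcium-binding protein, which binds calcium in the store and interacts with both triadin and the pump. Its CPM was 1056, 1506 and 1723 in noninduced hearts and 1511, 1715 and 1802 in Parkin KO hearts. Each Parkin KO heart was above the noninduced mean of 1473 CPM, and the Parkin KO hearts varied less, with an SD of 101 beside 242 CPM (n = 6 each). A log2 fold change of 0.20 ± 0.115 (SE) came with an edgeR adjusted p of 0.490.

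Jph2 (chromosome 2, 163336242 to 163397993, minus strand) encodes junctophilin-2, which holds the surface membrane and the store at a fixed distance in the dyad. It measured 663, 798 and 917 CPM in noninduced hearts against 749, 782 and 971 CPM in Parkin KO. The ranges overlap widely. Its log2 fold change was 0.08 ± 0.101 (SE), with an edgeR adjusted p of 0.755, and it was 0.0146 without Parkin KO 3 and 0.0229 without noninduced 5.

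The pump, Atp2a2 (chromosome 5, 122453513 to 122502225, minus strand), was the member with the most reads. It stood at 6613, 9282 and 11298 CPM in noninduced hearts and at 7966, 9684 and 10709 CPM in Parkin KO hearts. Both the lowest and the highest library were noninduced ones, numbers 6 and 4. Across groups the log2 fold change was 0.08 ± 0.134 (SE, edgeR adjusted p = 0.825) and turned to -0.01 without noninduced 6.

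Its inhibitor Pln (chromosome 10, 53337667 to 53345987, plus strand), encoding phospholamban, had the smallest p of the members. The 6 noninduced hearts held 1168, 1240, 1320, 1551, 1138 and 948 CPM in order of replicate number, and the 6 Parkin KO hearts 1565, 1527, 1375, 1529, 1434 and 1652 CPM. Every Parkin KO heart was above the noninduced mean, yet noninduced 4 was above 4 of the 6 Parkin KO hearts, so the groups overlap. The means were 1228 ± 202 and 1514 ± 97.8 CPM (SD, n = 6 each), a 1.23-fold difference with a 95% interval of 1.05 to 1.45. On the log2 scale this was 0.30 ± 0.111 (SE), with an edgeR unadjusted p of 0.016 and an adjusted p of 0.424. The estimate stayed between 0.23 and 0.37 when each library was left out. Its unadjusted edgeR p rose to 0.0672 with a term for sex and to 0.0995 among libraries with at most 10 Y-linked reads. In both settings the Parkin KO side rests on Parkin KO 1, 3 and 4, so they are much the same check. The unadjusted edgeR p was 0.0516 without noninduced 1, 2 and 3, and 0.0577 without noninduced 2 and 5. The summed cardiomyocyte markers moved the same way as Pln, with 10 of 12 higher, beside 52% of all tested genes. Of the 12, 1 was higher at an unadjusted edgeR p under 0.05, beside 5.82% of all tested genes. The part of these markers in the Pln difference was not tested.

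Reads of Pln could also have come from the opposite strand, because 64.7% of its exon bases overlap Cep85l and Gm47644 and the libraries carried no strand. The row of Cep85l itself was low, at 3.90 to 5.16 CPM over all 12 libraries, and averaged 4.73 ± 0.465 CPM in noninduced hearts against 4.61 ± 0.552 CPM in Parkin KO (SD, n = 6 each). For Atp2a2 and Slc8a1 the overlap was 1.36% and 1.62%, and for the other 7 members it was 0%.

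The start-site regions below are the 250 bases upstream of the RefSeq start on GRCm38.p6, shown for Pln and Casq2, the members with the smallest p values, and for Ryr2, whose level followed the pump most closely. Capitals mark matches to motifs bound by cardiac factors, searched on both strands, other than the E-box. The order in each line is 5′ to 3′ on the gene's strand.
Pln, chr10:53337436-53337685, plus strand: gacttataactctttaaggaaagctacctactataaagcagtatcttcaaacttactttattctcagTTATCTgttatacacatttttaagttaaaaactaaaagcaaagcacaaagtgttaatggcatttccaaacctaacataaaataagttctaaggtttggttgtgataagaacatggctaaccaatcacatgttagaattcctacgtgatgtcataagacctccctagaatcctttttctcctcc
Casq2, chr3:102086165-102086414, plus strand: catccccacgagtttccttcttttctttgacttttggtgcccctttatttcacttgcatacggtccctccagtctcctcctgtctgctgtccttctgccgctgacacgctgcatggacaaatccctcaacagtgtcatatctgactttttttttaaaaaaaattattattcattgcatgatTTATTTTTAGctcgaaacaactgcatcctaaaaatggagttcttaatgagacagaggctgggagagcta
Ryr2, chr13:12106946-12107195, minus strand: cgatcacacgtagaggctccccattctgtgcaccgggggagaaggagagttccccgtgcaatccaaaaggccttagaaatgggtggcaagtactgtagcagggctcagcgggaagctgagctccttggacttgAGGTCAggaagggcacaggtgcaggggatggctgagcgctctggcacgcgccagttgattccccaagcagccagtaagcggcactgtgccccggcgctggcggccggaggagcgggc
Pln carries 1 match to the GATA motif AGATAA, written on the opposite strand, and 9.99% of the 32851 mouse promoter windows of this length hold that motif. Casq2 carries a MEF2 site, found in 2.92% of windows, and Ryr2 carries the nuclear receptor half-site AGGTCA, found in 14%. Of the 8 members with a window, Slc8a1 also held the GATA motif and Jph2 the half-site. No member window held CATTCC (12.6% of windows) or the CArG box (1.47%). The E-box CANNTG was in the windows of all these members but S100a1, and in 66.2% of all windows. A match describes letters in the window and was not measured as a bound site.

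S100a1 (chromosome 3, 90511034 to 90514392, minus strand) encodes a small calcium sensor that acts on both the pump and the release channel. Its CPM was 650, 1097 and 1530 in noninduced hearts and 780, 853 and 1082 in Parkin KO hearts. The 3 highest libraries were noninduced 1, 2 and 3, and the lowest was noninduced 4, so the noninduced hearts enclosed all Parkin KO hearts. The log2 fold change was -0.22 ± 0.173 (SE, edgeR adjusted p = 0.596), and it was 0.10 without noninduced 1, 2 and 3.

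Slc8a1 (chromosome 17, 81373105 to 81738377, minus strand) encodes the sodium-calcium exchanger, the main route of calcium out of the cell. It measured 288, 420 and 560 CPM in noninduced hearts against 327, 373 and 457 CPM in Parkin KO. Noninduced 1 and 2 were the highest libraries and noninduced 6 the lowest, and again the noninduced range enclosed the other group. The log2 fold change of -0.12 ± 0.138 (SE, edgeR adjusted p = 0.723) became 0.02 without noninduced 1 and 3 and 0.14 without noninduced 1, 2 and 3.

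**Figure D2:**
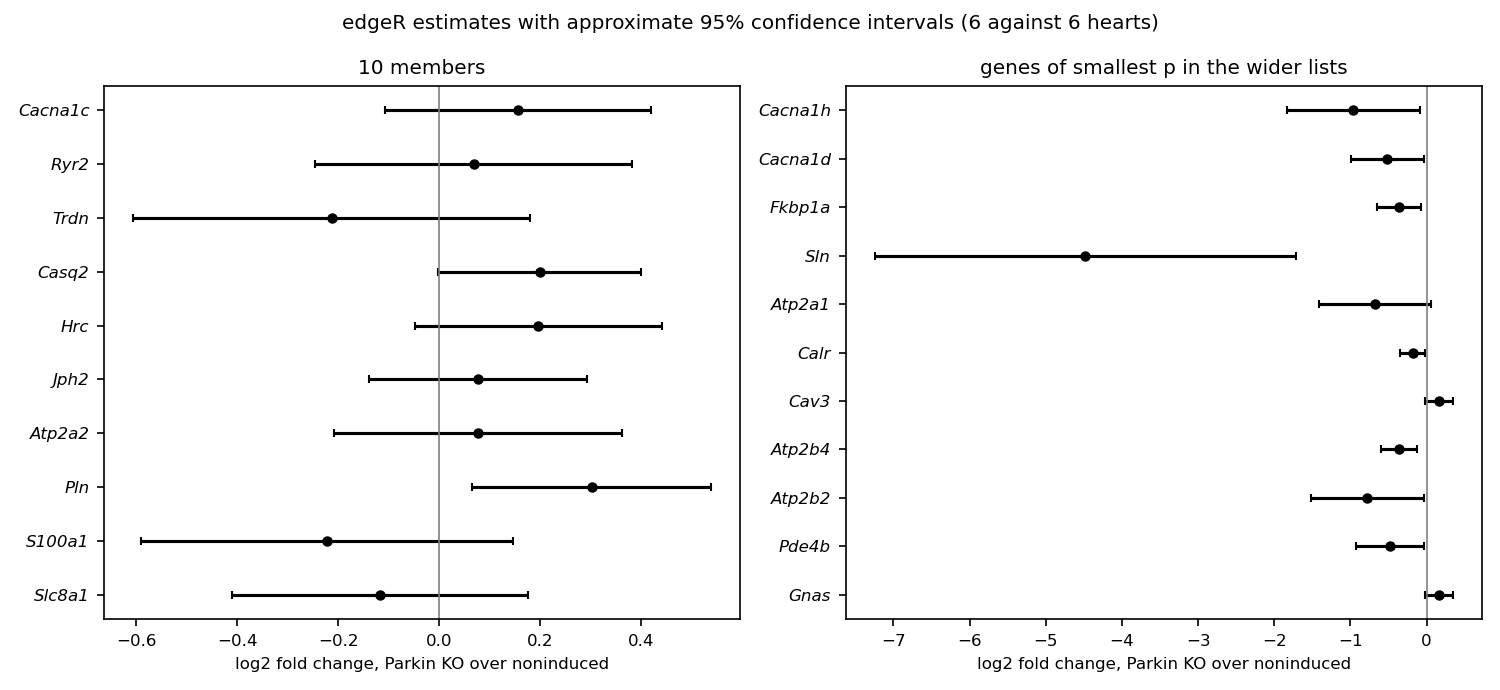
Log2 fold change of Parkin KO over noninduced hearts with approximate 95% confidence intervals from edgeR, for the 10 members (left) and for the genes of smallest p in the wider lists (right; the axes differ). Among members, Pln is the only one whose interval leaves out 0.

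Ratios of counts within a library do not depend on how libraries are scaled. Of the 45 pairs of members, 4 were tested with exact two-sided permutation tests on log2 ratios, adjusted over those 4 only. Pln, in the first of them, was the member of smallest p in edgeR. The ratio of Pln to Atp2a2, brake to pump, averaged 0.135 ± 0.00755 in noninduced hearts against 0.158 ± 0.0151 in Parkin KO (SD, n = 6 each). All Parkin KO hearts but 1 lay above all noninduced hearts, and Parkin KO 2 lay just under noninduced 6, both near 0.143. The log2 difference of 0.23, or 1.17-fold, had an exact permutation p of 0.00433 and an adjusted p of 0.0173. It lost the threshold, at a log2 difference of 0.24 and an adjusted exact permutation p of 0.0952, without the libraries labelled noninduced 1 and 3, whose Esr1 goes against their label. Without noninduced 1, 2 and 3 the adjusted permutation p was 0.143, and without noninduced 2 and 5 it was 0.114. Among the 8 libraries with at most 10 Y-linked reads the log2 difference was 0.18 (adjusted permutation p = 0.0714). The unadjusted permutation p of 0.0179 is the smallest that design allows. With the larger p of the other ratios there, it could not pass after adjustment. The same opposite-strand overlap of Pln applies to this ratio.

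The other 3 ratios did not pass. Slc8a1 to Atp2a2, extrusion to reuptake, was 0.0465 ± 0.0112 in noninduced hearts against 0.0401 ± 0.00256 in Parkin KO (SD, n = 6 each; exact permutation p = 0.266, adjusted 0.522). Its noninduced values spread from below to above all Parkin KO values, and the difference passed the threshold without noninduced 4, the lowest library (log2 difference -0.29, adjusted permutation p = 0.0173). Casq2 to Ryr2, store to release, was 0.235 ± 0.0818 against 0.246 ± 0.0431 (SD, n = 6 each; exact permutation p = 0.600), with the highest value in noninduced 6. Cacna1c to Ryr2, entry to release, was 0.221 ± 0.0279 against 0.231 ± 0.0154 (SD, n = 6 each; exact permutation p = 0.392, adjusted 0.522).

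**Figure D3:**
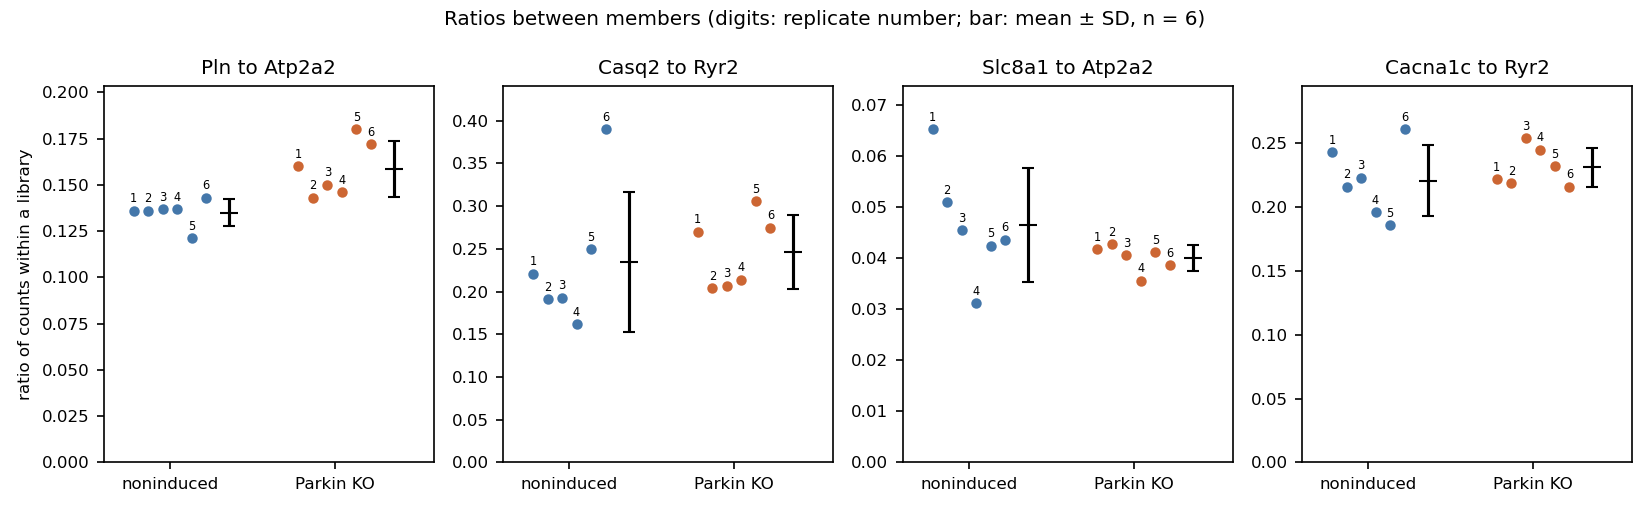
Ratios of counts between members in every heart, with replicate numbers and the mean ± SD (n = 6). For Pln to Atp2a2, 5 of the 6 Parkin KO hearts are above all noninduced hearts. In the other 3 panels the noninduced range encloses the Parkin KO range, though for Slc8a1 to Atp2a2 no Parkin KO heart is above the noninduced mean.

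Across the 12 hearts the members did not move as one. The 45 pairs had Pearson correlations of log2 CPM from -0.505 to 0.941 with a median of 0.23, 15 of them above 0.5 and 15 below 0. Ryr2 and Atp2a2, channel and pump, were the closest pair (r = 0.941, Spearman rho = 0.846 over 12 libraries), and r was 0.861 without noninduced 6. Cacna1c, Ryr2, Hrc, Atp2a2 and Pln correlated with each other at 0.613 to 0.941, a grouping chosen after the values were seen. Without noninduced 6 those values were 0.222 to 0.861. Within the 6 noninduced hearts the 10 pairs lay between 0.698 and 0.952, and within the 6 Parkin KO hearts between -0.125 (Pln and Cacna1c) and 0.906, with 7 of 10 under 0.5. Whether the groups differ in this was not tested. These correlations share library and scaling and are descriptions of 12 points.

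Noninduced 6 was the lowest library for 6 members: Cacna1c, Ryr2, Hrc, Atp2a2, Pln and Slc8a1. The same heart had the lowest cardiomyocyte sum (90372 CPM), the highest fibroblast sum (1772 CPM beside 597 to 1338 CPM elsewhere) and 9167 CPM of Acta1, the skeletal alpha-actin that the fetal heart also expresses, beside at most 3079 CPM in any other library. Their part in the low values was not tested.

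**Figure D4:**
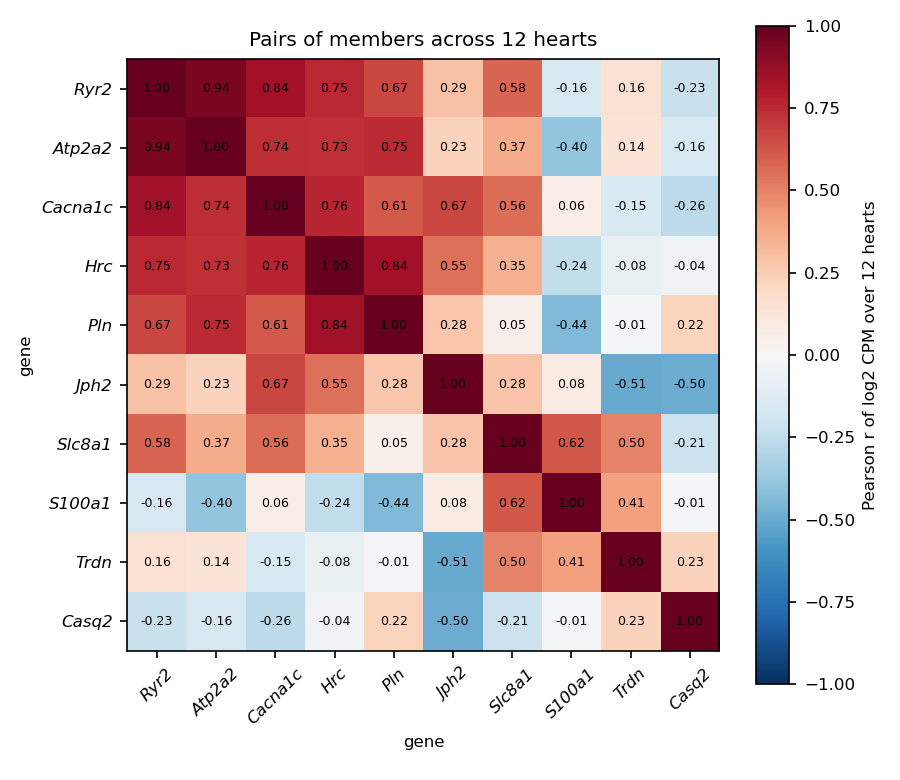
Pearson r of log2 CPM over 12 hearts for each pair of members. The block at the upper left holds Ryr2, Atp2a2, Cacna1c, Hrc and Pln, with r from 0.613 to 0.941, and Casq2 is below 0 with 7 of the other 9 members.

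Outside the set, the genes whose level followed the members' mean most closely over the 12 hearts were Asb15 (r = 0.947), Cyfip2 (0.938), Gnpat (0.936), Dlst (0.922) and Aldh5a1 (0.916). Asb15 encodes an ankyrin and SOCS-box protein of muscle, and Dlst a subunit of the 2-oxoglutarate dehydrogenase complex of the mitochondria. Without noninduced 6 the 5 correlations were 0.792 to 0.925.

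Levels of different genes were compared on the deposited FPKM, which divides by transcript length. S100a1 (2247 ± 439 FPKM, SD over 12 libraries) and Atp2a2 (2170 ± 313) were highest and not separated, S100a1 being above in 7 of 12 libraries. Hrc (679 ± 90.5) and Pln (608 ± 101) followed, with Hrc above in 11 of 12. Then came Casq2 (241 ± 35.6), Jph2 (192 ± 19.3) and Ryr2 (144 ± 22.6 FPKM), Casq2 being above Jph2 in 11 of 12 and Jph2 above Ryr2 in 12 of 12 libraries. Cacna1c was at 66.3 ± 8.99, and Slc8a1 (20.8 ± 2.65) and Trdn (18.5 ± 4.03) were lowest and not separated, with Slc8a1 above in 7 of 12. On this scale Atp2a2, Hrc, Pln and Casq2 thus stood above Ryr2, Cacna1c and Slc8a1 in every library. Dividing CPM by the merged exon length exchanged only the first and second places, but the gaps at the bottom changed. Cacna1c was then at 26.5 ± 4.03, Slc8a1 at 21.3 ± 3.83 and Trdn at 8.92 ± 2.06 CPM per kilobase (SD over 12 libraries). On that scale Slc8a1 was thus nearer to Cacna1c than to Trdn, so these distances depend on the length used.

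**Figure D5:**
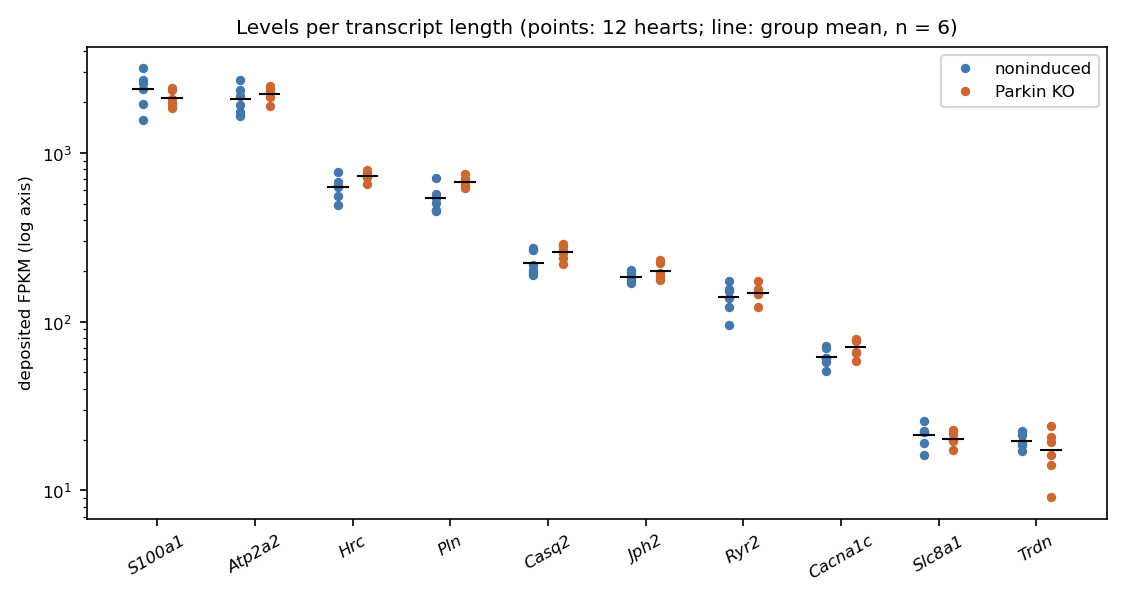
Deposited FPKM of the members on a log axis, ordered by the mean over 12 hearts, with points for hearts and a line for each group mean (n = 6). S100a1 and Atp2a2 overlap at the top, and Slc8a1 and Trdn overlap at the bottom.

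The 6 wider lists of the same pathway held 61 further genes, of which 60 had a row and 58 were tested. None passed the adjusted threshold in edgeR. Of the 58, 22 were higher and 36 lower in Parkin KO, with a median log2 fold change of -0.03. At an unadjusted p under 0.05, 9 were lower (15.5%, beside 5.54% of all genes) and 0 higher (beside 5.82%). The 9 were Cacna1h, Cacna1d, Fkbp1a, Sln, Calr, Atp2b4, Atp2b2, Fxyd1 and Pde4b. This share depended on which libraries were kept. Noninduced 2, 5 and 6 held 3330, 5987 and 4083 CPM of atrial markers. Without noninduced 2 and 5, 2 genes were lower (3.45%, beside 3.55% of all genes), Fkbp1a and Atp2b4. Without noninduced 6 alone, 12 were lower (20.7%, beside 8.2% of all genes). The number lower was 10 by DESeq2 (16.7%, beside 8.26% of all genes). It was 9 with RLE scaling, without the low-count filter or without mitochondrially encoded genes (15% to 15.5%, beside 4.92% to 6.74%). It was 8 without noninduced 1, noninduced 4 or Parkin KO 3 (13.8%, beside 4.45% to 8.64%). It was 7 without noninduced 3, noninduced 5, Parkin KO 2 or noninduced 1 and 3, and with a replicate term. Those 7 were 12.1%, beside 4.83% to 6.64%. Without Parkin KO 1 it was 6 (10.3%, beside 6.09%). Without Parkin KO 4, 5 or 6 it was 5 (8.62%, beside 3.96% to 5.05%). It was 4 (6.9%) without noninduced 2 alone, without noninduced 1, 2 and 3, and with a term for sex. In these settings 4.36%, 4.1% and 3.01% of all genes were lower at that level. Of the 4 without noninduced 1, 2 and 3, 2 were among the 9. It was 3 among libraries with at most 10 Y-linked reads (5.17%, beside 2.57%) and by limma-voom (5.17%, beside 4.4%). On FPKM it was 2 or 3 (3.85% to 5%, beside 3.77% to 4.38%). The number higher was 3 without noninduced 1, 2 and 3. It was 2 with a term for sex or with few Y-linked reads, and 0 or 1 elsewhere. The share of all genes also moved, from 2.57% (few Y-linked reads) to 8.64% (without noninduced 4).

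Among the L-type channel and its regulators, Cacna1h and Cacna1d, which encode pores of T-type and L-type channels of pacemaker and atrial tissue, had the smallest p. Cacna1h was 46.4 ± 31.2 CPM in noninduced hearts against 23.8 ± 5.40 CPM in Parkin KO, and Cacna1d 4.78 ± 1.73 and 3.34 ± 0.592 CPM (SD, n = 6 each). Their edgeR adjusted p was 0.424 for both. Without noninduced 2 and 5, high in atrial markers, the log2 fold change of Cacna1h moved from -0.96 to -0.24. That of Cacna1d moved from -0.52 to -0.19. Without noninduced 6, also high in atrial markers, they were -1.2 (Cacna1h) and -0.639 (Cacna1d). In the release complex, Fkbp1a, a binding protein of ryanodine receptors, was 217 ± 50.6 and 168 ± 18.7 CPM (log2 fold change -0.37, edgeR adjusted p = 0.424). Fkbp1a had a log2 fold change of -0.145 without noninduced 1, 2 and 3. Both channel genes were more variable among noninduced than among Parkin KO hearts.

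Of the pump regulators, Sln, the sarcolipin that inhibits the pump in atria, ran from 0.164 to 130 CPM in noninduced and from 0.064 to 5.54 CPM in Parkin KO hearts (log2 fold change -4.48 ± 1.30 SE, edgeR adjusted p = 0.417). Sln is itself in the list of atrial markers, so its movement beside them is in part built in. Without noninduced 2 and 5 its log2 fold change shrank to -1.22, with an edgeR adjusted p of 0.734. Without noninduced 6 it was -4.76. Atp2a1, the pump of fast skeletal muscle, was 3.54 ± 1.98 and 2.19 ± 0.785 CPM (edgeR adjusted p = 0.448). In the store and dyad list, Calr, a calcium-binding chaperone, was 358 ± 27.1 and 316 ± 19.1 CPM (log2 fold change -0.18, edgeR adjusted p = 0.424). Cav3, the caveolin of muscle, was 50.4 ± 5.94 and 56.3 ± 4.58 CPM (edgeR adjusted p = 0.468).

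Plasma membrane calcium pumps led the extrusion list. Atp2b4 was 60.0 ± 9.25 CPM in noninduced hearts against 46.6 ± 5.34 CPM in Parkin KO (log2 fold change -0.36 ± 0.109 SE, edgeR adjusted p = 0.417), and Atp2b2 was 1.21 ± 0.700 and 0.687 ± 0.112 CPM (edgeR adjusted p = 0.432). The log2 fold change of Atp2b2 moved from -0.78 to -0.22 without noninduced 2 and 5, and was -0.98 without noninduced 6. Fxyd1, encoding phospholemman, was 925 ± 297 and 708 ± 99.2 CPM (edgeR adjusted p = 0.438), and its log2 fold change turned from -0.38 to 0.01 without noninduced 1, 2 and 3. For beta-adrenergic control, Pde4b, a cAMP phosphodiesterase, was 34.8 ± 13.2 and 24.8 ± 4.85 CPM (edgeR adjusted p = 0.424), and Gnas, the stimulatory G-protein subunit, was 846 ± 77.8 and 946 ± 55.3 CPM (edgeR adjusted p = 0.459). Pde4b moved from a log2 fold change of -0.49 to -0.0605 without noninduced 1, 2 and 3.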

How the data were processed

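The deposited files are 2 tables over 12 libraries, 1 of raw counts per gene and 1 of FPKM. Per the submitters' processing notes, TopHat2 2.0.10, Bowtie2, HTSeq, Cufflinks 2.1 and mm10 were used, and DESeq and edgeR are also named. The counts deposited by the authors are whole reads per gene, and the deposited FPKM values are scaled by gene length and library size. Columns were matched to samples by group and number.

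Counts were tested with edgeR 4.0.16 (R 4.3.3): TMM scaling, filterByExpr, a quasi-likelihood F test on group, and Benjamini-Hochberg adjustment over 13050 genes. CPM values use the TMM library sizes, and fold-change intervals are 95%. DESeq2 1.42.0, limma 3.58.1 and other alternatives are in the closing section. The edgeR script was tested on simulated data. The labels do not say that each sample is a separate animal, so p-values measure the spread between these samples. Replicate numbers did not pair the hearts. Exon overlap came from GENCODE M21, promoters from RefSeq.

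The members and lists were chosen with earlier results of these data known. Genes named beyond the members are the 2 of smallest p in each wider list, any with an adjusted p under 0.05, the 5 most like the members' mean, Esr1, and, chosen after their values were seen, Fxyd1, Acta1 and Cep85l. The targeted gene and 1 gene that this rule names are not reported here.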

Additional observations from a re-analysis of the deposited data

Results flagged for a closer look

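In noninduced 5 the ratio of Pln to Atp2a2 was 0.1207, and its gap to the nearest other noninduced heart was 0.668 of the range of that group, past the limit for 6 samples. Such gaps were examined in 28 groups of 6 hearts, and chance alone gives about 1 in 20. Without noninduced 5 the log2 difference between the groups was 0.20, with an adjusted exact permutation p of 0.0433.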

How the results depend on the processing

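No gene passed under edgeR, limma or the other settings, with 3 exceptions, each beside 0. DESeq2 gave 10 genes, and edgeR gave 1 without noninduced 1 and 3 and 1 without noninduced 1, 2 and 3. In both edgeR settings the gene was Esr1 (edgeR adjusted p of 1.48e-05 and 0.00041), whose reads the transgene can supply. Esr1 was also among the 10 genes of DESeq2 (DESeq2 adjusted p = 0.0354). No member passed under any of the 26 alternatives. Leaving out each library gave 0 genes and 0 members each time, and a median of the members from 0.0167 to 0.124. The ratio differences then ran from 0.19 to 0.257 (Pln to Atp2a2), 0.0179 to 0.271 (Casq2 to Ryr2), -0.289 to -0.0766 (Slc8a1 to Atp2a2) and 0.0279 to 0.125 (Cacna1c to Ryr2). Slc8a1 to Atp2a2 passed without noninduced 4, at -0.289.

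Without noninduced 1, 2 and 3 (an alternative chosen after seeing the data) these turned over: Slc8a1 to 0.138, S100a1 to 0.0965, Casq2 to Ryr2 to -0.047 and Slc8a1 to Atp2a2 to 0.0499. Slc8a1 was 0.0174 without noninduced 1 and 3, and Casq2 to Ryr2 was -0.0197 among libraries with few Y-linked reads. With each library left out, Ryr2 ran from -0.0452 (without noninduced 6; -0.009 without Parkin KO 2) to 0.122, and Atp2a2 from -0.0099 (without noninduced 6) to 0.134. Pln to Atp2a2 kept its direction but lost the threshold at 0.236 (without noninduced 1 and 3) and 0.243 (without 1, 2 and 3). It also did so at 0.191 without 2 and 5, a setting not planned in advance for the ratios. The cause was not tested, though each of these settings uses fewer samples. Its values of 0.175 (few Y-linked reads) and 0.228 (replicate block) had the smallest exact permutation p those designs allow, 0.0179 and 0.0312. With the larger p of the other ratios in those settings, neither could pass after adjustment over 4 ratios. The lost threshold in those 2 settings therefore says nothing about stability.

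Same-numbered hearts did not deviate together (r from -0.0991 to 0.166), and with the replicate block 0 genes passed and 1700 had an unadjusted p under 0.05, beside 1483. Other settings gave 628 to 1760 such genes, and leaving out each library 932 to 2131. The order of levels moved 2 members with CPM per kilobase, a setting not planned in advance. Counts of 678 to 187411 reads per member and library give a counting error of 3.84% to 0.231%, below the SD between hearts of each member.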
